A study of Mus musculus with 12 samples.

Results

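The CDK inhibitors are the 7 mouse genes Cdkn1a, Cdkn1b, Cdkn1c, Cdkn2a, Cdkn2b, Cdkn2c and Cdkn2d, whose entries were taken by symbol from the 55376 gene symbols of the deposited table of raw read counts. They were measured by RNA-Seq in 12 samples of brain cells sorted by FACS on the surface lipid O1, which marks differentiating oligodendrocytes, and without the leukocyte marker CD45. The labels give the strain C57BL/6 and postnatal day 40 for all samples. The methods list the p21CIP1 null line as B6.129S6(Cg)-Cdkn1a tm1Led/J, from strain 129S6/SvEvTac, and as backcrossed over many generations. Each sample held the cells of 2 brains. There were 4 samples each of WT mice, of Cnp-Cre Jab1fl/fl mice and of Cnp-Cre Jab1fl/fl p21CIP1-/- mice, called double mutants here. In both mutant genotypes a Cre recombinase driven by Cnp, a gene of oligodendrocytes, deletes the floxed Jab1 alleles, whose gene symbol is Cops5 and whose product is a subunit of the COP9 signalosome. Double mutants also carry the p21CIP1 null allele, a germline knockout of Cdkn1a that is present in all cells and not in oligodendrocytes alone. A group with the p21CIP1 null allele and intact Jab1 was not analysed here, and whether WT mice carried Cre or floxed alleles is not given in the sources used here. The comparisons address whether loss of Jab1 changes the levels of the inhibitors in oligodendrocytes and which of them differ once p21CIP1 is removed as well.

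CDK inhibitors are small proteins that stop the cell cycle by binding cyclin-dependent kinases. The Cip/Kip proteins p21CIP1 (Cdkn1a), p27KIP1 (Cdkn1b) and p57KIP2 (Cdkn1c) bind complexes of cyclins with several CDKs. The INK4 proteins p16INK4a (Cdkn2a), p15INK4b (Cdkn2b), p18INK4c (Cdkn2c) and p19INK4d (Cdkn2d) bind CDK4 and CDK6 and prevent their pairing with D-type cyclins. Both families keep the retinoblastoma protein unphosphorylated, which holds E2F factors inactive, and p21CIP1 and p16INK4a are the members most often used as markers of cellular senescence. In the oligodendrocyte lineage, p27KIP1 and p57KIP2 are known for their parts in cell cycle exit and the timing of differentiation. The symbol Cdkn2a also covers p19ARF, a protein read from another frame of the same gene that stabilizes p53, and the counts of that symbol do not separate the transcripts.

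On GRCm38, with the annotation of GENCODE release M21, Cdkn1a lies on the forward strand at chr17:29090976-29100727 and Cdkn1b on the forward strand at chr6:134920401-134925513. The other members are on the reverse strand, with Cdkn1c at chr7:143458339-143461050, Cdkn2a at chr4:89274471-89294653, Cdkn2b at chr4:89306299-89311039, Cdkn2c at chr4:109660876-109667189 and Cdkn2d at chr9:21288410-21291407. Exons of Cdkn1c share 589 bp with the antisense gene Gm44732 and exons of Cdkn1a share 273 bp with AC167363.2 on the opposite strand. Whether the counting used strand is not given in the sources used here, so reads of these stretches cannot be assigned with certainty.

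RefSeq promoter sequences of GRCm38.p6, 300 bases from 250 before to 50 after a start site, were matched for 6 of the 7 members and held 9 windows. Both start sites of Cdkn1a are shown because Cdkn1a had the largest fitted change of the family between Cnp-Cre Jab1fl/fl and WT cells, and those of Cdkn1b and Cdkn2b because they stand for a member with similar and a member with very variable levels. All are printed 5′ to 3′ on the strand of the gene, with motif matches in capitals.
Cdkn1a upstream start, chr17:29090729-29091028, forward strand: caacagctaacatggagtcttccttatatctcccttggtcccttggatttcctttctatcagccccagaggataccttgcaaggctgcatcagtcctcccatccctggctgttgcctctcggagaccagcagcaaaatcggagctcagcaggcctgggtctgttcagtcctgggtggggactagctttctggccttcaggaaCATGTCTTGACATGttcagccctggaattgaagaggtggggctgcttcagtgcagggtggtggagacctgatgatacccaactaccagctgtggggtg
Cdkn1a downstream start, chr17:29093519-29093818, forward strand: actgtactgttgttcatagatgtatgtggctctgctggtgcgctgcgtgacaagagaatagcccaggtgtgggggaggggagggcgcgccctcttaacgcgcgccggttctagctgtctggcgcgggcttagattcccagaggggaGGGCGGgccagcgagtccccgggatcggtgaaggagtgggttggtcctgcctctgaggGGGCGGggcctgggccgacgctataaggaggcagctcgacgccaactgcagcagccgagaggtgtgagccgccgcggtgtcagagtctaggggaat
Cdkn1b, chr6:134920151-134920450, forward strand: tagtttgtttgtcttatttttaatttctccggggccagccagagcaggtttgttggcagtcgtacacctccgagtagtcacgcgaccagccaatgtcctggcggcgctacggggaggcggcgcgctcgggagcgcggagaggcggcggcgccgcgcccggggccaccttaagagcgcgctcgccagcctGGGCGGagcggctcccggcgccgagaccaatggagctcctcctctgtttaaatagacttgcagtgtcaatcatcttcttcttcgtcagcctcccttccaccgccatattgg
Cdkn2b, chr4:89310983-89311282, reverse strand: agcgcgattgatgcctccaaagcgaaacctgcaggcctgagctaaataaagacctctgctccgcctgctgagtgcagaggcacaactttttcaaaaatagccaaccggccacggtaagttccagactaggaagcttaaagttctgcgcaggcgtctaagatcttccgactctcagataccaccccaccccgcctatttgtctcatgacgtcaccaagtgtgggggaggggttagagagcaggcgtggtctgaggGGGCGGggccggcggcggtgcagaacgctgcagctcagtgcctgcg
Capitals in the upstream Cdkn1a window mark a pair of p53 core quartets, searched as CATGNNNNNNCATG, and capitals in the other windows mark GC boxes, searched as GGGCGG on both strands. The p53 core pair was found 48 bases before the upstream Cdkn1a start as CATGTCTTGACATG, in 0 of the other 8 windows of the family, and in 0.712% of 32851 promoters. GC boxes were found in 35.7% of all promoters, and there were 2 in the downstream Cdkn1a window and 1 each in those of Cdkn1b and Cdkn2b. The letters TATAAA, held by 13.6% of promoters, were in no window of the family, and TTTNGCGC, held by 1.38%, was in 1 window of Cdkn2a. These matches describe letters in the windows, and the counts, which are per gene, do not tell which start site was used.

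Counts per sample summed to between 61485556 and 153495112, and levels are given as CPM, the reads of a gene per 1000000 reads of its sample, scaled by TMM factors. Sums of markers show that the sorted samples differed in makeup between genotypes. The 10 markers of mature oligodendrocytes summed to 45139 to 105683 CPM in WT, 8999 to 35144 CPM in Cnp-Cre Jab1fl/fl and 16875 to 52714 CPM in double mutants, and 7 of 10 were lower in Cnp-Cre Jab1fl/fl than in WT by edgeR. The 20 microglial markers summed to 150 to 362 CPM, 1374 to 3542 CPM and 540 to 23917 CPM, respectively, with 18 of 20 higher in Cnp-Cre Jab1fl/fl than in WT. The 10 endothelial markers summed to 356 to 738 CPM, 817 to 5720 CPM and 703 to 5396 CPM, with 7 of 10 higher. The 8 choroid plexus and ependymal markers summed to 280 to 4002 CPM, 6370 to 24244 CPM and 5349 to 23587 CPM, with 2 of 8 higher. The 10 mural markers summed to 291 to 549 CPM, 1005 to 1793 CPM and 306 to 1733 CPM, with 5 of 10 higher. Of the 10 progenitor markers 2 were higher, but their sums were 245 to 296 CPM, 165 to 285 CPM and 180 to 264 CPM. Cspg4 is in both of these lists. Of the 12 markers of border macrophages and peripheral leukocytes, 4 were tested and 2 were higher. None of the 10 astrocyte or 10 neuronal markers passed the test. Between Cnp-Cre Jab1fl/fl and WT, 7.64% of all genes passed in either direction and 5.19% were higher. In double mutants against WT, 0 markers of any of these lists passed the edgeR test, where only 0.192% of all genes passed. However, 19 of 20 microglial and 9 of 10 endothelial markers had an unadjusted p under 0.05, beside 12.4% of all genes. Fewer cells of a type and less RNA per cell cannot be told apart in these bulk samples.

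Cops5, the gene that Cre deletes, was at 103 ± 39.7 CPM in WT, 66.9 ± 18.0 CPM in Cnp-Cre Jab1fl/fl and 58.6 ± 21.5 CPM in double mutants (mean ± SD, n = 4 each, as for all means below). Its log2 fold changes against WT were -0.62 (SE 0.36, adjusted p = 0.349) and -0.82 (SE 0.39, adjusted p = 0.424), and the ranges of the genotypes overlapped. The test therefore gives no call for the deleted gene itself, and the counts cover the whole gene and not only the floxed part.

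In Cnp-Cre Jab1fl/fl cells, Cdkn1a and Cdkn1c rose against WT, and the other members did not pass the test. Of the 7 members, 6 passed the filter (1 CPM or more in 4 or more of the 12 samples) and Cdkn2a did not. By edgeR at an adjusted p below 0.05, 2 of these 6 were higher and 0 lower, where 7.64% of the 17716 genes tested passed in either direction and 5.19% were higher. DESeq2 called 3 members (Cdkn1a, Cdkn1c and Cdkn2b), beside 15.2% of all genes, limma-voom the first 2, beside 10.8%, and edgeR among genes of at least 10 CPM all 3, beside 13.8%. The ranges of 3 members, Cdkn1a, Cdkn1c and Cdkn2b, lay wholly above those of WT, as did those of 9.9% of all genes tested.

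Cdkn1a was at 85.3, 43.3, 16 and 21.7 CPM in WT replicates 1, 3, 5 and 6. It was at 379, 397, 396 and 637 CPM in Cnp-Cre Jab1fl/fl replicates 1 to 4. All 4 mutant values were above every WT value, and the mutant samples were close together but for replicate 4. The means were 41.6 ± 31.4 CPM and 452 ± 124 CPM, a log2 fold change of 3.44 (SE 0.53, 95% interval 2.29 to 4.60), or 10.9-fold higher, with an adjusted p of 0.0044 by edgeR. This was the 139th smallest p of all genes. The call was kept in each of the 8 fits that left out 1 sample, in which the log2 fold change was 3.17 to 4.07, the highest without WT replicate 1. WT samples varied more for Cdkn1a than for most genes, with an SD of log2 values at the 95.8th percentile of all genes tested, whereas in Cnp-Cre Jab1fl/fl the SD was at the 17.7th percentile.

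The sums of microglial and endothelial markers were above every WT sample in all Cnp-Cre Jab1fl/fl samples, as was Cdkn1a. So were the sums of mural markers, of choroid plexus and ependymal markers, and of border macrophage and leukocyte markers. In replicates 1 and 2, Cdkn1a was at 379 and 397 CPM, whereas the endothelial markers summed to 5720 and 817 CPM and the microglial markers to 3442 and 1374 CPM. Replicate 4, with the highest Cdkn1a, also had the highest microglial sum of its genotype, 3542 CPM. In WT, the samples had the same order in Cdkn1a and in the endothelial sum, which was 738, 645, 637 and 356 CPM from the highest to the lowest Cdkn1a. Among double mutants, replicate 3 had the highest microglial sum of all 12 samples, 23917 CPM, with Cdkn1a at 101 CPM, beside 103 CPM in replicate 2, where the microglial sum was 1141 CPM. The part of other cells in the Cdkn1a levels was not tested.

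Cdkn1a reads remained in double mutants, at a level below that of Cnp-Cre Jab1fl/fl. The samples had 7913, 13040, 10397 and 6180 counts, or 84.5, 103, 101 and 64.7 CPM, in replicates 1, 2, 3 and 5. All 4 were below every Cnp-Cre Jab1fl/fl sample, while 2 of 4 lay within the WT range and the others above it. The mean was 88.4 ± 17.9 CPM, with a log2 fold change against Cnp-Cre Jab1fl/fl of -2.35 (SE 0.32, 95% interval -3.06 to -1.65), or 5.11-fold lower. Its p of 1.55e-05 was the 3rd smallest of all genes, and the adjusted p was 0.0916, above the threshold. The call was made by DESeq2 (adjusted p = 1.57e-10), by limma-voom (0.0486) and among genes of at least 10 CPM (0.0356). Against WT, the log2 fold change was 1.08 (SE 0.48, 95% interval 0.01 to 2.14, adjusted p = 0.394), and the ranges overlapped. Without WT replicate 1 it was 1.70 (adjusted p = 0.238). The counts are summed over the gene, so they do not tell whether the reads come from the part of Cdkn1a that the null allele removes. By qPCR, the paper reports Cdkn1a as not detectable in sorted double-mutant oligodendrocytes. The part of the gene covered by that assay is not given in the sources used here. Since double mutants carry the null allele, their difference from Cnp-Cre Jab1fl/fl is no test of how Cdkn1a is regulated.

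The genes next to Cdkn1a were not called in any comparison by edgeR. Trp53cor1, a p53-responsive noncoding RNA gene that lies 11796 bp upstream, was at 2.22 ± 1.01 CPM in WT, 3.45 ± 1.99 CPM in Cnp-Cre Jab1fl/fl and 4.49 ± 1.8 CPM in double mutants. Its log2 fold changes against WT were 0.63 (SE 0.80, adjusted p = 0.705) and 1.0 (SE 0.68, adjusted p = 0.588). Rab44, 13417 bp downstream, was at 0.88 ± 0.664, 0.0294 ± 0.0589 and 3.13 ± 3.66 CPM, respectively, with adjusted p values of 0.196 and 0.767 against WT.

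Cdkn1b, which encodes p27KIP1, did not pass the test in any comparison. It was at 21.5, 9.10, 14.9 and 19.6 CPM in WT, at 16.9, 29.3, 30.7 and 25.5 CPM in Cnp-Cre Jab1fl/fl and at 25.8, 17.3, 7.67 and 12.1 CPM in double mutants. In Cnp-Cre Jab1fl/fl, 3 of 4 samples exceeded every WT sample, and double mutants spanned the WT range and beyond. The log2 fold change of Cnp-Cre Jab1fl/fl against WT was 0.65 (SE 0.38, 95% interval -0.18 to 1.49, adjusted p = 0.35). Against WT, double mutants gave -0.07 (SE 0.46, 95% interval -1.09 to 0.95, adjusted p = 0.97), and against Cnp-Cre Jab1fl/fl -0.70 (SE 0.45, 95% interval -1.69 to 0.28, adjusted p = 0.996). These intervals all hold no change, and that of Cnp-Cre Jab1fl/fl against WT also holds changes of up to 2.81-fold higher.

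Cdkn1c, which encodes p57KIP2, was the other member called in Cnp-Cre Jab1fl/fl, and its values in double mutants were also all above those of WT. It was at 9.64, 12.2, 13.6 and 11.2 CPM in WT. It was at 48.0, 25.8, 29.5 and 28.2 CPM in Cnp-Cre Jab1fl/fl and at 21, 41.0, 60.1 and 54.1 CPM in double mutants. All 8 mutant samples were above every WT sample, while both mutant genotypes overlapped. The sums of microglial markers, of choroid plexus and ependymal markers, and of border macrophage and leukocyte markers were likewise above every WT sample in all 8. The mean rose from 11.7 ± 1.68 CPM in WT to 32.9 ± 10.2 CPM in Cnp-Cre Jab1fl/fl, a log2 fold change of 1.49 (SE 0.34, 95% interval 0.74 to 2.25), or 2.81-fold, with an adjusted p of 0.0253 by edgeR. The call was lost without WT replicate 1 (adjusted p = 0.069), WT replicate 5 (0.0552), WT replicate 6 (0.0667) or Cnp-Cre Jab1fl/fl replicate 1 (0.0781), with log2 fold changes of 1.25 to 1.58 over the 8 fits that left out a sample.

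In double mutants, 0 of the 6 members tested passed the edgeR test against WT, where 0.192% of all genes passed in either direction and 0.175% were higher. At an unadjusted p under 0.05 there were 3, Cdkn1a, Cdkn1c and Cdkn2b, beside 12.4% of all genes, and DESeq2 called 2, Cdkn1c and Cdkn2b, beside 4.87% of all genes. By limma-voom 0 were called, beside 0.265% of all genes, and among genes of at least 10 CPM edgeR called 1, Cdkn1c, beside 1.34%. Cdkn1c was at 44.1 ± 17.4 CPM in double mutants, 3.75-fold the WT level, with a log2 fold change of 1.91 (SE 0.38, 95% interval 1.08 to 2.73). Its p of 3.89e-04 was the 79th smallest of all genes and the adjusted p was 0.0873. Without double-mutant replicate 1, the lowest of its group, the adjusted p was 0.0237. Cdkn1c was the only member of which the ranges did not overlap in this comparison, beside 4.52% of all genes with ranges above those of WT. The difference between both mutant genotypes was 0.42 on the log2 scale (SE 0.39, 95% interval -0.44 to 1.28, adjusted p = 0.996). Double-mutant replicates 3 and 5, with the highest Cdkn1c values, had endothelial sums of 3286 and 5396 CPM, against 703 and 809 CPM in replicates 1 and 2. Their microglial sums were 23917 and 2648 CPM, against 540 and 1141 CPM, so the 4 double mutants had the same order in Cdkn1c and in the microglial sum. The part of other cells in the Cdkn1c levels was not tested.

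Between double mutants and Cnp-Cre Jab1fl/fl, 0 of 6 members passed the edgeR test, as did 0% of all genes. At an unadjusted p under 0.05 there was 1 member, Cdkn1a, beside 5% of all genes, and 1, the same gene, was called by DESeq2 (beside 0.491% of all genes), by limma-voom (0.00564%) and by edgeR among genes of at least 10 CPM (0.0478%). Its range lay wholly below that of Cnp-Cre Jab1fl/fl, as did those of 1.99% of all genes. Cdkn1a is the gene that carries the null allele in double mutants, so this comparison does not test its regulation.

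**Figure D1:**
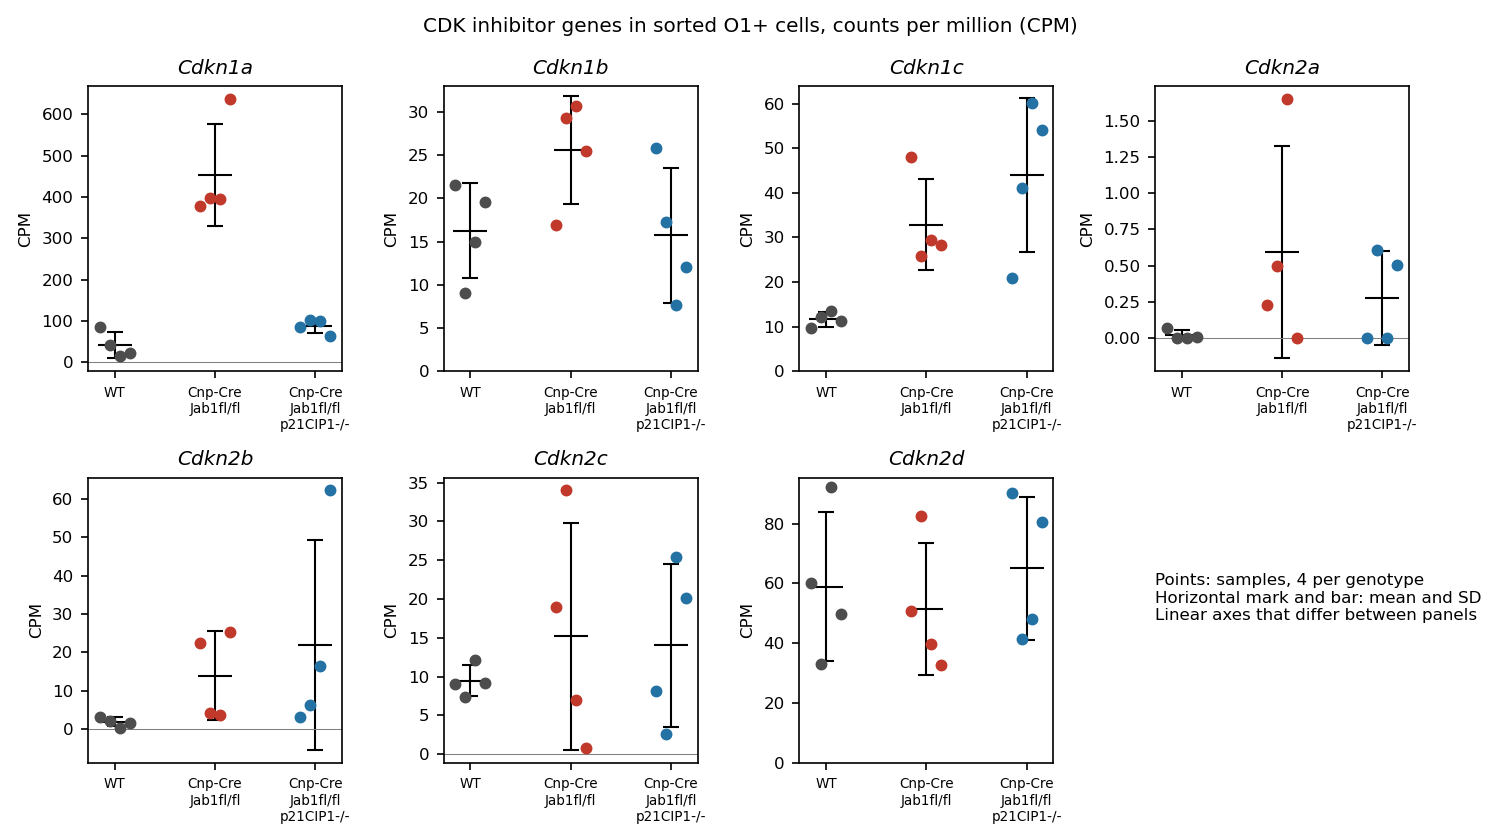
CPM of the 7 CDK inhibitor genes in each of the 12 samples by genotype, on linear axes that differ between panels; points are samples, horizontal marks the means and bars the SD (n = 4). Cdkn1a lies at 379 to 637 CPM in Cnp-Cre Jab1fl/fl and at 64.7 to 103 CPM in double mutants, whereas Cdkn1c lies above the WT range in both mutant genotypes.

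**Figure D2:**
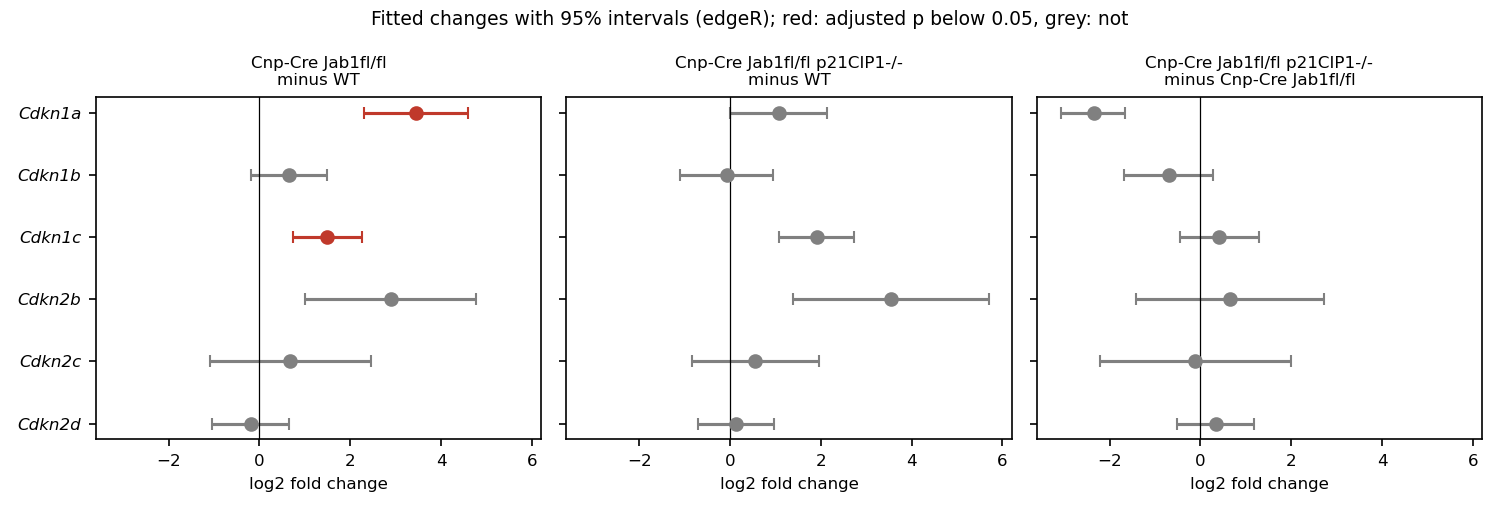
Log2 fold changes of the 6 CDK inhibitor genes that passed the filter in the 3 comparisons of genotypes, with 95% intervals from edgeR; red marks an adjusted p below 0.05. Only Cdkn1a and Cdkn1c are red, in Cnp-Cre Jab1fl/fl minus WT, and the intervals of Cdkn2b and Cdkn2c are the widest.

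Among the INK4 genes, Cdkn2a was at or near 0 in most samples. There were 8, 0, 0 and 1 counts in WT, 18, 60, 112 and 0 counts in Cnp-Cre Jab1fl/fl and 0, 77, 0 and 48 counts in double mutants. Thus 3 of 4 Cnp-Cre Jab1fl/fl samples exceeded every WT sample, while the fourth had no count, as had 2 of 4 double mutants. The means were 0.0208, 0.594 and 0.278 CPM, and the differences were 0.573 CPM for Cnp-Cre Jab1fl/fl minus WT (two-sided exact permutation test, p = 0.143), 0.257 CPM for double mutants minus WT (p = 0.429, same test) and -0.316 CPM for double mutants minus Cnp-Cre Jab1fl/fl (p = 0.629, same test). The smallest p that 70 relabelings allow is 0.0286. A count of 0 allows up to 3 counts in these libraries, for counting error only.

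Cdkn2b, which encodes p15INK4b, was low in WT and high in some mutant samples of either genotype. It was at 3.24, 2.20, 0.415 and 1.67 CPM in WT. It was at 22.4, 4.15, 3.71 and 25.4 CPM in Cnp-Cre Jab1fl/fl and at 3.08, 6.34, 16.4 and 62.2 CPM in double mutants. Every Cnp-Cre Jab1fl/fl sample was above WT, and double-mutant replicate 1 was the only mutant sample within the WT range. The log2 fold change of Cnp-Cre Jab1fl/fl against WT was 2.89 (SE 0.86, 95% interval 1.01 to 4.77), or 7.4-fold, with an adjusted p of 0.0656, which fell to 0.0385 without Cnp-Cre Jab1fl/fl replicate 2. It was called by DESeq2 (adjusted p = 0.00308) and among genes of at least 10 CPM (0.0259). Double mutants gave 3.54 against WT (SE 0.98, 95% interval 1.38 to 5.71, adjusted p = 0.184, and 0.00155 by DESeq2), which became 2.19 (adjusted p = 0.463) without double-mutant replicate 5. Against Cnp-Cre Jab1fl/fl they gave 0.66 (SE 0.94, 95% interval -1.41 to 2.73), which became -0.69 without the same sample.

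Cdkn2b was high in the samples with much endothelial, mural and microglial RNA. The 4 samples with the highest sums of endothelial markers, Cnp-Cre Jab1fl/fl replicates 1 and 4 and double-mutant replicates 3 and 5, with 5720, 4483, 3286 and 5396 CPM, were the 4 with the highest Cdkn2b. The same 4 samples had the highest sums of mural markers, 1193, 1793, 1430 and 1733 CPM. They also had the highest sums of microglial markers, 3442, 3542, 23917 and 2648 CPM. The next in the endothelial sum, Cnp-Cre Jab1fl/fl replicate 3 with 2943 CPM, had Cdkn2b at 3.71 CPM. The genes with the pattern most like Cdkn2b over the 12 samples were Wfdc1 (Pearson r of 0.97, and 0.95 after subtracting the mean of each genotype), Ramp2 (0.96 and 0.94) and Hspb1 (0.96 and 0.92), of which Ramp2 is a receptor-modifying protein of endothelial cells. The part of endothelial, mural or microglial cells in the Cdkn2b values was not tested.

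**Figure D3:**
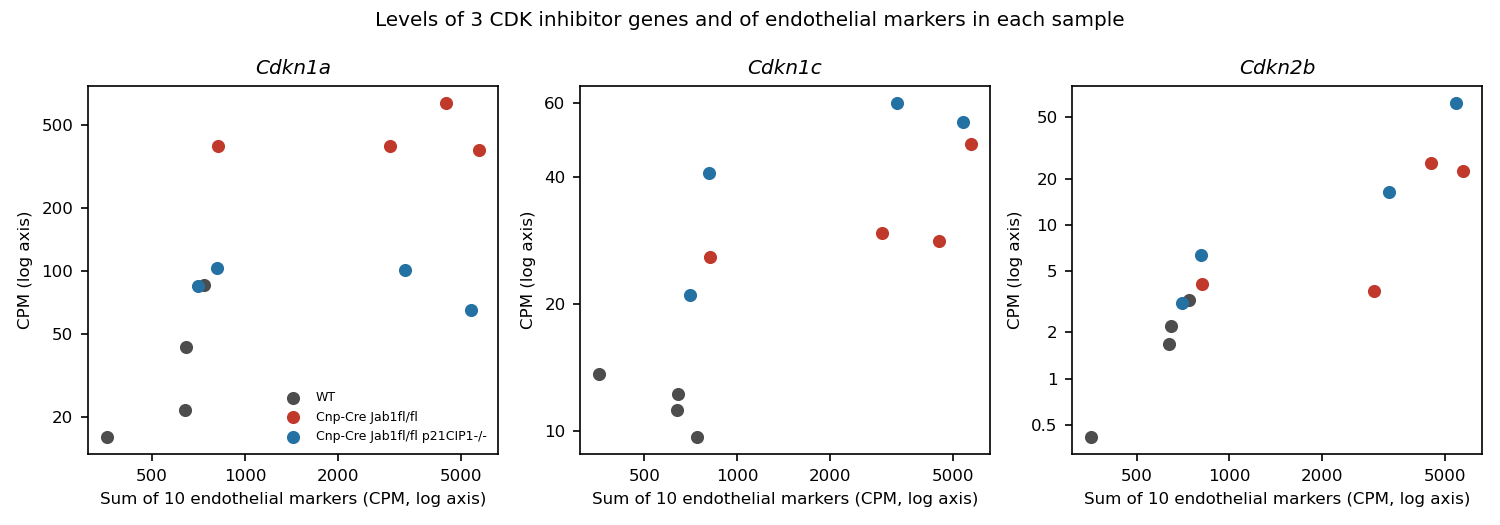
CPM of Cdkn1a, Cdkn1c and Cdkn2b against the summed CPM of 10 endothelial markers in each of the 12 samples, both on log axes, colored by genotype. Cnp-Cre Jab1fl/fl samples have Cdkn1a at 379 to 637 CPM over endothelial sums of 817 to 5720 CPM, whereas the 4 highest Cdkn2b values are at the 4 highest sums.

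Cdkn2c, which encodes p18INK4c, was the most variable member tested in Cnp-Cre Jab1fl/fl and did not pass the test. In WT it was at 9.06, 7.43, 12.2 and 9.22 CPM. In Cnp-Cre Jab1fl/fl it was at 19.0, 34.0, 7.04 and 0.767 CPM, and in double mutants at 8.08, 2.63, 25.4 and 20.1 CPM. WT samples were close together, and mutant samples lay on both sides of them. The SD of log2 values was 0.27 in WT and 1.88 in Cnp-Cre Jab1fl/fl, the latter at the 99.2nd percentile of all genes tested. In double mutants it was 1.30, below the 1.72 of Cdkn2b. The highest Cnp-Cre Jab1fl/fl value was 44.3-fold the lowest. The log2 fold changes were 0.68 (SE 0.81, adjusted p = 0.683) for Cnp-Cre Jab1fl/fl against WT and 0.56 (SE 0.63, adjusted p = 0.764) for double mutants against WT, and the former became -0.10 without Cnp-Cre Jab1fl/fl replicate 2.

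Cdkn2d, which encodes p19INK4d, was the highest member in WT per exon length and did not pass the test in any comparison. It was at 60.2, 33.2, 92.3 and 49.6 CPM in WT, at 50.9, 82.6, 39.8 and 32.8 CPM in Cnp-Cre Jab1fl/fl and at 90.2, 41.4, 48.2 and 80.6 CPM in double mutants. The 3 ranges largely coincided. The log2 fold changes were -0.19 (SE 0.39, 95% interval -1.04 to 0.66, adjusted p = 0.826) for Cnp-Cre Jab1fl/fl against WT, 0.13 (95% interval -0.71 to 0.97) for double mutants against WT and 0.34 (95% interval -0.52 to 1.19) between the mutant genotypes. A change of 1 on the log2 scale in either direction lies outside the interval of double mutants against WT.

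Levels of different members were compared as CPM per kb of exon (CPM divided by the summed length of all exons of the gene). In WT, Cdkn2d stood first at 39.9 ± 16.9 CPM per kb, followed by Cdkn1a at 15.3 ± 11.6, Cdkn1c at 6.02 ± 0.867, Cdkn1b at 3.58 ± 1.21, Cdkn2c at 3.53 ± 0.742, Cdkn2b at 1.35 ± 0.844 and Cdkn2a at 0.0178 ± 0.0297. The ranges of neighbours in this order overlapped between Cdkn2d and Cdkn1a, Cdkn1a and Cdkn1c, and Cdkn1b and Cdkn2c, and the remaining neighbours were separate. In Cnp-Cre Jab1fl/fl, Cdkn1a stood first at 166 ± 45.4 CPM per kb, apart from Cdkn2d at 34.9 ± 14.9, and then came Cdkn1c at 16.9 ± 5.25 and Cdkn2b at 10 ± 8.34. From Cdkn2d down to Cdkn1b at 5.62 ± 1.36 each range overlapped the next, and only Cdkn2a, at 0.507 ± 0.625, was separate. In double mutants, Cdkn2d at 44.1 ± 16.2 and Cdkn1a at 32.5 ± 6.6 CPM per kb overlapped, with 2 of 4 samples having Cdkn2d above Cdkn1a, and Cdkn1c at 22.7 ± 8.94 and Cdkn2b at 15.8 ± 19.7 followed. In that genotype Cdkn1a carries the null allele, yet its reads were divided by the full exon length, so its place in the order is no measure of p21CIP1.

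Cdkn1a made up 22% of the summed CPM per kb of the family in WT (range 7.03% to 35.8%), 68.7% in Cnp-Cre Jab1fl/fl (61.4% to 79.4%) and 27.8% in double mutants (14.7% to 39.2%). Cdkn2d was the leading member in 4 of 4 WT samples, and Cdkn1a was the leading member in 4 of 4 Cnp-Cre Jab1fl/fl samples. In double mutants the share of Cdkn1c was 18.4% ± 6.73, beside 9.16% ± 2.83 in WT. The family sum was 69.7 ± 18.6 CPM per kb in WT, 240 ± 39.8 in Cnp-Cre Jab1fl/fl and 124 ± 27.4 in double mutants, and without Cdkn1a it was 54.4 ± 17.8, 73.6 ± 18 and 91.6 ± 33.2. In double mutants, the share of Cdkn1a and the family sum that includes it count reads of a gene with the null allele. They do not measure intact Cdkn1a transcript. These shares are a description of transcript levels and were not tested.

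**Figure D4:**
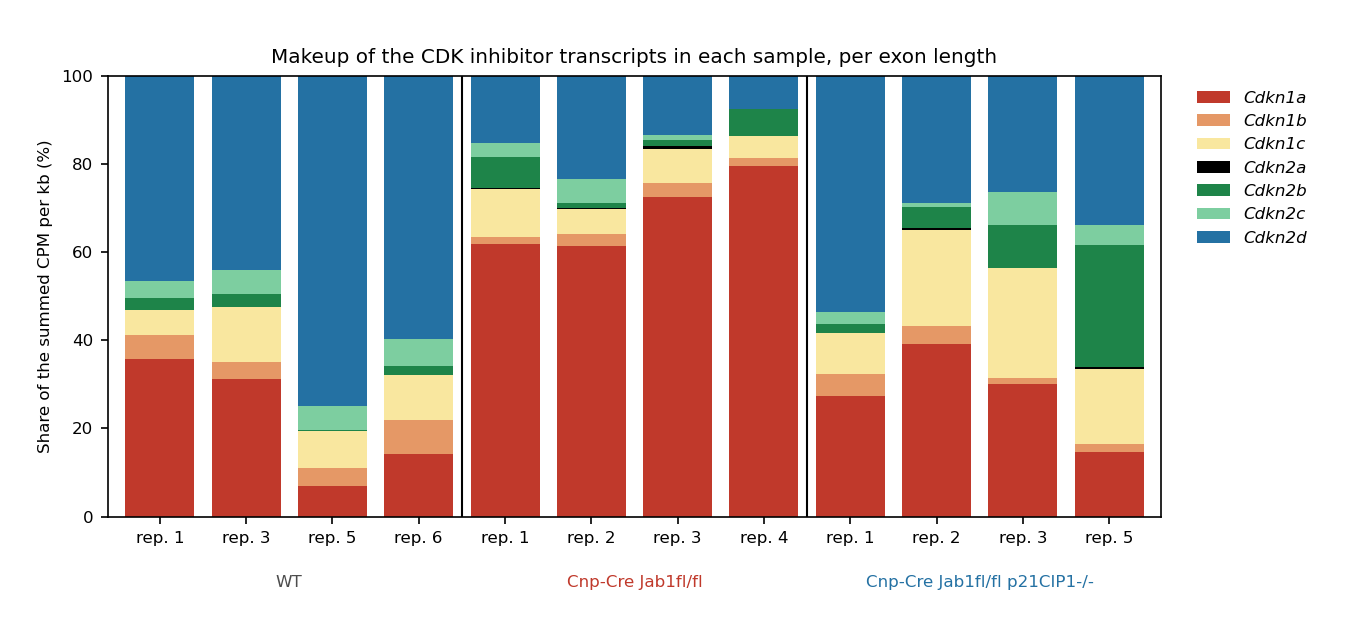
Share of each of the 7 CDK inhibitor genes in their summed CPM per kb of exon, as stacked bars for the 12 samples, from 0 to 100%. Cdkn1a takes 61.4% to 79.4% in Cnp-Cre Jab1fl/fl samples and at most 39.2% in any other sample, and Cdkn2d leads in every WT sample.

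The genes around the inhibitors were described by 4 lists. Of the list of cyclins and CDKs, 16 of 17 were tested, and 0 passed the edgeR test in any comparison. This list was wider than the direct targets of the inhibitors, since it also held Cdk5, Cdk7, Ccnh and Mnat1. Over all genes, 7.64% passed in Cnp-Cre Jab1fl/fl against WT, 0.192% in double mutants against WT and 0% between the mutant genotypes. In Cnp-Cre Jab1fl/fl against WT, 15 of 16 had log2 fold changes above 0 with a median of 0.77, beside 0.02 over all genes, and 5 had an unadjusted p under 0.05, beside 22.5% of all genes. DESeq2 called 1 and limma-voom 2 of them, beside 15.2% and 10.8% of all genes. The gene with the smallest adjusted p was the exception in direction, Cdk5, a kinase of postmitotic cells, at 139 ± 40.4 CPM against 279 ± 89.4 CPM in WT (log2 fold change -1.01, SE 0.32, adjusted p = 0.085, and 0.0395 without Cnp-Cre Jab1fl/fl replicate 2). In double mutants against WT, the median was 0.80, 14 of 16 were above 0 and 3 had an unadjusted p under 0.05, beside 12.4% of all genes, with Cdk7, a CDK-activating kinase, at 45 ± 3.78 CPM against 25.9 ± 8.89 CPM (0.78, SE 0.32, adjusted p = 0.339). Between the mutant genotypes the median was 0.10 and the smallest unadjusted p was that of Ccnh, the cyclin partner of Cdk7 (-0.49, SE 0.30, adjusted p = 0.996, as for 4 other genes of the list). In these 2 comparisons DESeq2 called 0, beside 4.87% and 0.491% of all genes, and limma-voom 0, beside 0.265% and 0.00564%. Both mutant genotypes were set against the same WT samples.

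Of the pocket proteins, E2F and DP factors, which act downstream of the inhibitors, 0 of 13 passed the test in any comparison, 0 had an unadjusted p under 0.05, and DESeq2 and limma-voom called 0. The list medians were -0.10, -0.24 and -0.16 on the log2 scale for Cnp-Cre Jab1fl/fl minus WT, double mutants minus WT, and double mutants minus Cnp-Cre Jab1fl/fl. In the same order, 7.64%, 0.192% and 0% of all genes passed by edgeR, and 22.5%, 12.4% and 5% had an unadjusted p under 0.05. DESeq2 called 15.2%, 4.87% and 0.491% of all genes, and limma-voom 10.8%, 0.265% and 0.00564%. The genes with the smallest p were E2f3, an activating E2F, in the first (1.28, SE 0.61, adjusted p = 0.24), Rb1, which encodes the retinoblastoma protein, in the second (-0.89, SE 0.58, adjusted p = 0.565), and E2f7, a repressing E2F, in the third (-1.85, SE 1.10, adjusted p = 0.996, as for E2f5). Rb1 was at -1.82 (adjusted p = 0.0918) without double-mutant replicate 2. E2f7 was at -1.01 without Cnp-Cre Jab1fl/fl replicate 1 and at -2.62 without double-mutant replicate 2.

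Of the genes for turnover and localization of the inhibitor proteins, 18 of 19 were tested and 0 passed in any comparison by edgeR. The shares of all genes that passed were 7.64% and 0.192% for Cnp-Cre Jab1fl/fl and double mutants against WT, and 0% between the mutant genotypes. In Cnp-Cre Jab1fl/fl against WT, 6 had an unadjusted p under 0.05, beside 22.5% of all genes, the median was -0.15, and DESeq2 called 2, beside 15.2% of all genes. Rnf123, a subunit of a ubiquitin ligase for p27KIP1, had the smallest adjusted p (22 ± 2.31 CPM against 53.4 ± 37.5 CPM, log2 fold change -1.28, SE 0.42, adjusted p = 0.093), and without WT replicate 3 the change was -0.68 (adjusted p = 0.213). In double mutants against WT the median was -0.16, 1 gene had an unadjusted p under 0.05, beside 12.4% of all genes, and DESeq2 called 1, beside 4.87%. This was Pim1, a kinase that phosphorylates p21CIP1 and p27KIP1, at 13.6 ± 5.65 CPM against 0.928 ± 0.552 CPM (3.86, SE 0.72, adjusted p = 0.0783, and 0.0393 without double-mutant replicate 1). Pim1 also had the smallest adjusted p between the mutant genotypes (1.21, SE 0.61, adjusted p = 0.979).

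Among transcriptional regulators of the inhibitor genes, 7 of 32 tested rose in Cnp-Cre Jab1fl/fl against WT and 0 fell, where 5.19% of all genes were higher and 7.64% passed in either direction. The list median was 0.45, beside 0.02 over all genes, and 11 had an unadjusted p under 0.05, beside 22.5% of all genes. DESeq2 called 10 and limma-voom 8 of them, beside 15.2% and 10.8%. Klf4, a zinc finger factor that activates Cdkn1a together with p53, was at 56.1 ± 32 CPM against 4.68 ± 2.47 CPM in WT (log2 fold change 3.58, SE 0.55, adjusted p = 0.00444), and Cebpb, a bZIP factor of stress and inflammatory responses, was 2.54 higher (SE 0.48, adjusted p = 0.011). Both calls were kept in all 8 fits that left out 1 sample. Ets1, an activator of Cdkn2a, was 2.38 higher on the log2 scale (SE 0.52, adjusted p = 0.0204) and Tbx3, a repressor of Cdkn2a and Cdkn1a, was 2.45 higher (SE 0.59, adjusted p = 0.029). Trp53, which encodes p53, the main activator of Cdkn1a, was at 86 ± 20.8 CPM against 41.2 ± 4.21 CPM (1.06, SE 0.27, adjusted p = 0.036). The remaining called genes, Id1 and Tbx2, fell outside the rule for named genes and were named after their values were seen (1.91 and 3.35, adjusted p = 0.0455 and 0.0434). The list thus held activators and repressors of the inhibitor genes among its called members. It was written with earlier results of these data known. In the same comparison, 18 of 20 microglial, 7 of 10 endothelial and 5 of 10 mural markers were higher, and 7 of 10 mature oligodendrocyte markers were lower. The part of other cells in the levels of the regulators was not tested.

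The calls of Ets1, Tbx3 and Trp53 depended on single samples. Ets1 lost its call without WT replicate 1 (adjusted p = 0.0566), WT replicate 5 (0.0519), WT replicate 6 (0.0544) or Cnp-Cre Jab1fl/fl replicate 1 (0.0602). Tbx3 lost it without WT replicates 1, 5 or 6 or Cnp-Cre Jab1fl/fl replicates 1, 3 or 4 (0.0626 to 0.0784). Trp53 kept it only without Cnp-Cre Jab1fl/fl replicate 2 (0.0394) and otherwise had adjusted p values of 0.0569 to 0.113. In these fits the list held as few as 2 called genes.

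In double mutants against WT, where 0.175% of all genes were higher, 1 regulator of 32 rose, with a list median of 0.38. This was Klf4, at 37.6 ± 3.41 CPM (log2 fold change 2.99, SE 0.45, adjusted p = 0.0404). The call was kept only without double-mutant replicate 1 (0.0273) and lost without any other of the 8 samples, that is WT replicates 1, 3, 5 and 6 and double-mutant replicates 2, 3 and 5, with adjusted p values of 0.0606 to 0.147. Between the mutant genotypes 0 of 32 passed by edgeR, as did 0% of all genes, and the median was -0.22. DESeq2 and limma-voom called 0, beside 0.491% and 0.00564% of all genes. At an unadjusted p under 0.05 there was 1, beside 5% of all genes. This was Cebpb, at 8.94 ± 6.13 CPM in double mutants against 22.2 ± 4.75 CPM in Cnp-Cre Jab1fl/fl (-1.31, SE 0.56, adjusted p = 0.968).

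**Figure D5:**
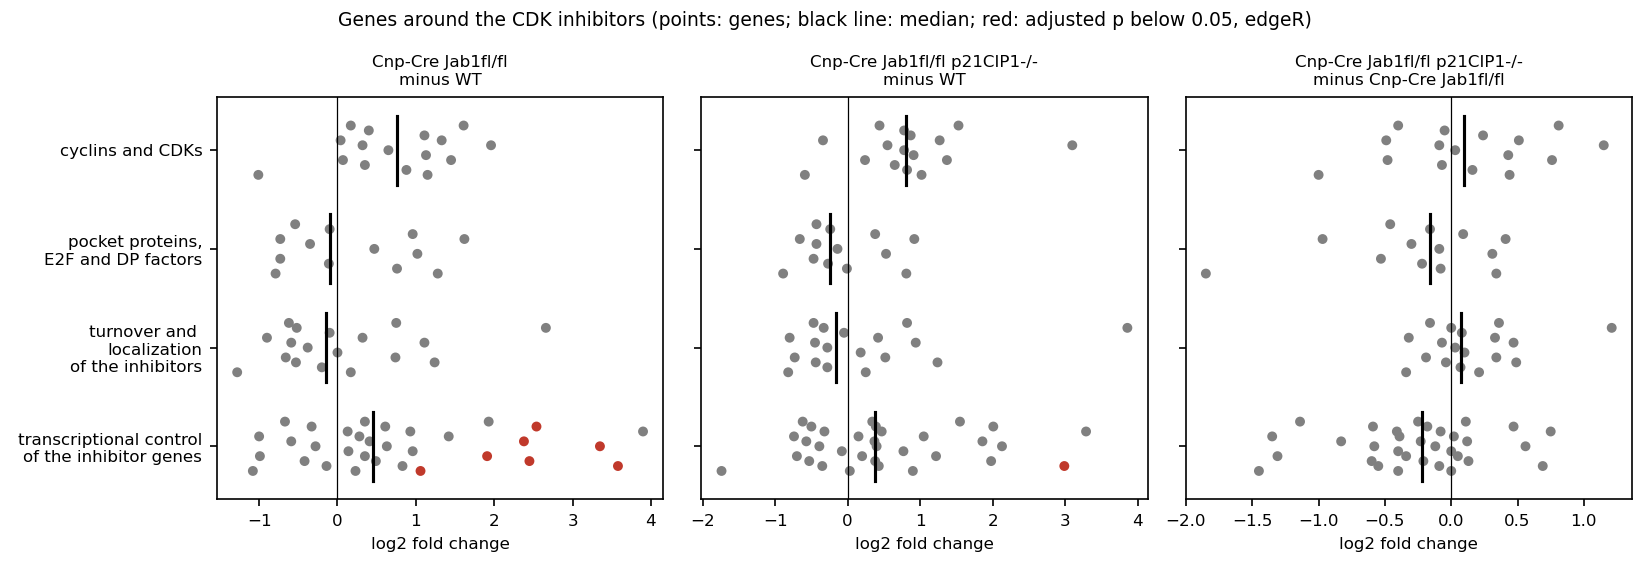
Log2 fold changes of the tested genes of 4 lists around the CDK inhibitors in the 3 comparisons of genotypes; points are genes, black lines list medians, and red an adjusted p below 0.05 by edgeR. Red points are confined to the list of transcriptional regulators, with 7 in Cnp-Cre Jab1fl/fl minus WT and 1 in double mutants minus WT.

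The patterns of the members over the 12 samples differed in the genes most like them, by Pearson r of log2(CPM + 1), given here as a description of samples that share genotypes. For Cdkn1a these were Gm27010 (r of 0.96, and 0.87 after subtracting the mean of each genotype), Ccdc88b (0.94 and 0.35) and Tnni3 (0.93 and 0.42). Ccdc88b was at 0.735 CPM in WT, 72.3 CPM in Cnp-Cre Jab1fl/fl and 7.59 CPM in double mutants, so its likeness to Cdkn1a lay mostly between genotypes. For Cdkn1c the most alike were Ifit3, an interferon-induced gene (0.96 and 0.87), Phf11d (0.95 and 0.90) and Ccl6, a chemokine of myeloid cells (0.95 and 0.75). Ifit3 was at 10.4, 94 and 130 CPM in WT, Cnp-Cre Jab1fl/fl and double mutants, the same order of means as Cdkn1c. Cdkn1b was most like Dancr (0.94 and 0.95), Chkb (0.92 and 0.88) and Otulin (0.91 and 0.98). Cdkn2c was most like Vxn (0.91 and 0.95), Brinp1 (0.91 and 0.92) and B3galt4 (0.90 and 0.95), and Cdkn2d like Map1lc3b, a gene of autophagy (0.93 and 0.93), Dcun1d1 (0.93 and 0.96) and Bod1 (0.92 and 0.92).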

How the data were processed

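RNA-Seq counts were available for 12 samples, 4 per genotype, grouped by the genotype in their labels; separate samples held separate pairs of brains. The authors amplified RNA with a SMART-Seq v4 kit and sequenced paired ends. Per the submitters' processing notes and the paper's methods, reads were trimmed with Trimmomatic 0.32, aligned to GRCm38 with STAR 2.5.3a and assigned to genes by featureCounts with the basic set of GENCODE. The deposited table holds unfiltered raw counts by gene symbol, with 0 entries that name no gene. The use of strand and of reads with several matches is not given in the sources used here. Of 55376 symbols, 54402 (98.2%) were matched to 1 gene of GENCODE M21, used for positions and lengths.

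CPM was computed with TMM factors of all 12 samples. The main test was edgeR 4.0.16 (quasi-likelihood, two-sided, R 4.3.3) on the 8 samples of each comparison, for the 17716 genes that reached 1 CPM in 4 or more of 12 samples, with Benjamini-Hochberg adjustment over all of them and a threshold of 0.05. Standard errors were the log2 fold change divided by the square root of F. Cdkn2a, below the filter, was compared by exact permutation in SciPy 1.17.1. Alternatives were DESeq2 1.42.0, limma-voom (limma 3.58.1) with sample weights, other scaling factors and filters, all 12 samples in one fit, the replicate number as a block, and leaving out each sample. The scripts were tested on simulated counts.

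Named genes were the members, Cops5, at most 5 called genes per list and comparison or else that with the smallest adjusted p (ties by unadjusted p), the 3 genes most like each tested member in log2(CPM + 1), neighbours of Cdkn1a and overlapping genes. The members and lists were chosen with earlier results of these data known. In the smallest library 1 CPM is 61.5 counts before TMM scaling, so precision was set by the spread between samples; reads carry no molecular identifiers. Chi-square per degree of freedom between samples of a genotype was at least 210, so none was a repeat of another.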

Additional observations from a re-analysis of the deposited data

Results flagged for a closer look

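Each member was examined for a sample far from the others of its genotype, by the gap to the nearest sample over the range of the 4. Of 24 groups of 4 samples (7 members and Cops5 in 3 genotypes), 3 exceeded the critical value of 0.829, where chance alone gives about 1 in 20.

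Cdkn1a was at 637 CPM in Cnp-Cre Jab1fl/fl replicate 4, whereas the other samples of that genotype were at 379, 396 and 397 CPM. Cdkn1c was at 48 CPM in Cnp-Cre Jab1fl/fl replicate 1, above 25.8, 28.2 and 29.5 CPM in the others, and it is this sample without which the Cdkn1c call was lost (adjusted p = 0.0781), as it was without 3 of the WT samples. Cdkn2a was at 0.0725 CPM in WT replicate 1, or 8 counts, above 0, 0 and 0.0108 CPM in the others. The part of cell makeup in these values was not tested.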

How the results depend on the processing

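The rise of Cdkn1a in Cnp-Cre Jab1fl/fl against WT was called in all 16 alternatives, with log2 fold changes of 2.67 to 4.07, whereas that of Cdkn1c was called in 10 of 16 (1.25 to 1.79). Members called in this comparison numbered 2, beside 1354 of 17716 genes, but 1 (Cdkn1a) with no filter, beside 903 of 36070 genes. With the replicate number as a block 1 was called, beside 660 of 17716 genes. DESeq2 called 3 (Cdkn2b added), beside 15.2% of all genes, and a mean of at least 10 CPM gave 3, beside 13.8%. With a sample left out 1 to 3 were called, beside 678 to 1863 genes. Against WT, double mutants had 0, beside 0.192% of all genes, but 2 by DESeq2 (4.87%) and 1 with a mean of at least 10 CPM (1.34%). There was 1 with all 12 samples in one fit, beside 164 of 17716 genes, and 0 to 1 with a sample left out. Between the mutant genotypes there were 0, but 1 by DESeq2, 1 with a mean of at least 10 CPM and 1 by limma-voom, each Cdkn1a, and 0 with any sample left out. Where these counts moved, the cause was not tested.

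In the lists, Cnp-Cre Jab1fl/fl against WT gave 7 transcriptional regulators, beside 1354 of 17716 genes. There were 3 with no filter (beside 903 of 36070 genes), 3 with all 12 samples in one fit (941 of 17716) and 1 with the block (660 of 17716). DESeq2 called 10, beside 15.2% of all genes, and limma-voom 8, beside 10.8%. With a sample left out 2 to 7 were called, beside 678 to 1863 genes. Cyclins and CDKs went from 0 to 1 by DESeq2, 2 by limma-voom and 0 to 1 with a sample left out, and turnover genes from 0 to 2 by DESeq2, 1 with all 12 samples in one fit and 1 by limma-voom. In double mutants against WT, the 1 regulator became 4 by DESeq2, 0 with no filter, 0 with the block and 0 to 1 with a sample left out. There, turnover genes went from 0 to 1 by DESeq2, 1 with all 12 samples in one fit and 0 to 1 with a sample left out, and cyclins and CDKs to 0 to 1 with a sample left out.

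Directions turned for members that were not called. With the block, Cdkn2d became 0.01 and Trp53cor1 -0.45 in Cnp-Cre Jab1fl/fl against WT. By limma-voom, Cdkn2c became -0.26 and -0.03 against WT and 0.34 between the mutant genotypes. With a sample left out, Cnp-Cre Jab1fl/fl against WT ranged from -0.53 to 0.11 for Cdkn2d and from -0.10 to 1.05 for Cdkn2c, and double mutants against WT from -0.41 to 0.17 for Cdkn1b and from -0.07 to 0.45 for Cdkn2d. Between the mutant genotypes the ranges were -0.54 to 0.65 for Cdkn2c and -0.69 to 1.15 for Cdkn2b, and the Cdkn2a difference ranged from -0.514 to 0.0352 CPM. Per kb of the longest transcript, Cdkn1a was at 217 CPM in Cnp-Cre Jab1fl/fl and 42.5 CPM in double mutants. Rab44 was not refitted, since groups at 0 counts give no fold.

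Deviations of same-numbered samples from their genotype means had correlations of -0.19 to 0.083. Differently numbered samples were not compared in this way, so these values do not settle whether the numbers pair samples. With the block, 660 genes were called in Cnp-Cre Jab1fl/fl against WT and 1 in double mutants, against 1354 and 34 without it. The spread among 4 samples, and not depth, limits the values of Cdkn2b and Cdkn2c, and counts of at most 112 limit Cdkn2a.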
